A study of Mus musculus with 8 samples.

Results

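Hmga2, Hmga1, Lin28b, Igf2bp1, Igf2bp2, Igf2bp3, Arid3b and Trim71 are well-known targets of the let-7 microRNAs, and most of them are oncofetal genes, active in the embryo, low in most adult tissues and often active again in tumors. They were chosen by name as targets of let-7 for a comparison of tumors that carry or lack Ago2, and each of the 8 symbols matched 1 row among 55487 genes. The tumors were grown from Lewis lung carcinoma (LLC) cells, a mouse lung cancer line, placed under the skin of the flank of C57BL/6J mice, which were female and 6 to 8 weeks old when bought, and were taken at day 12. There were 4 wild-type tumors and 4 tumors from cells labelled as Ago2 knock-out (ΔAgo2), made with a lentiviral CRISPR guide and puromycin selection. A ΔAgo2 clone was chosen for engraftment, so that genotype and clone cannot be told apart, and stromal and immune cells of the host kept Ago2 in both groups. The 8 libraries carry the same batch label. Polyadenylated RNA was sequenced from whole tumors, in which fewer cells of a type and less RNA per cell cannot be told apart.

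MicroRNAs are short RNAs that guide Argonaute proteins, of which Ago2 is one, to matching sites in messenger RNAs. Pairing of the seed, bases 2 to 8 of the microRNA, to a site in the 3'UTR leads to decay of the messenger RNA and to less translation. let-7 is abundant in differentiated tissue and low in the embryo, and LIN28 proteins block its maturation, while LIN28B is itself a target of let-7. HMGA1 and HMGA2 bind the minor groove of AT-rich DNA and alter chromatin, and the IGF2BP proteins bind messenger RNAs and stabilise many of them.

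The sequences below show the seed that the family shares and where its members differ. They are mature mouse sequences from RefSeq on GRCm38.p6, with the seed in capitals. They come from 10 sequences matched by name to let-7 or miR-98 and kept because they held the seed of let-7a-5p. The microRNAs themselves were not measured in these libraries.
mmu-let-7a-5p: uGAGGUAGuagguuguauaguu
mmu-let-7d-5p: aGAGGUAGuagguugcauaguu
mmu-let-7g-5p: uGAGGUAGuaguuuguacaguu
mmu-miR-98-5p: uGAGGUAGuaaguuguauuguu

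A site that pairs with the whole seed and has an A opposite base 1 reads CTACCTCA and is called an 8mer. The same site without the A reads CTACCTC and is called a 7mer-m8, and the site without the first C reads TACCTCA and is called a 7mer-A1. A site was given 1 type only, and the sense strand of the longest 3'UTR of each gene was searched, in GENCODE M21 on GRCm38 (mm10). Each of the 8 genes held at least 1 such match, with 32 matches in all, of which 11 were 8mers. At least 1 match was present in 14.9% of the 20793 genes with an annotated 3'UTR, and an 8mer in 3.07%. Among the 8637 genes whose 3'UTR length lay between the shortest and the longest of the 8, 1183 to 6337 bases, the shares were 24.9% and 5.14%. A search of the 3'UTRs of all protein-coding transcripts of each of the 8 genes gave the same number of matches. A match is a description of the sequence and says nothing of whether it was bound.

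The matches were unevenly spread. Hmga2 held 7 and Trim71 held 6, and Arid3b, Lin28b and Igf2bp1 held 5 each. In the whole annotation 16 genes held 5 or more, and 5 of the 16 are among the 8 described here. Igf2bp2 held 2 matches, and Hmga1 and Igf2bp3 held 1 each. Hmga1 and Arid3b had no 8mer, while Trim71 had 4 and Igf2bp1 had 3.

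The sites of Hmga2, with the most matches, are given first, then the 8mers of Igf2bp1 and Trim71 and the single or first site of the others. Each line holds 22 bases of 3'UTR in the direction of the gene, ending at the base opposite base 1 of the microRNA, with the seed match in capitals.
Hmga2 site 1, 8mer: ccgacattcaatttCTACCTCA
Hmga2 site 2, 7mer-A1: gaccgcagtaccactTACCTCA
Hmga2 site 3, 7mer-m8: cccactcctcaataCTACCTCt
Hmga2 site 4, 7mer-A1: aagtctccaagtttgTACCTCA
Hmga2 site 5, 7mer-m8: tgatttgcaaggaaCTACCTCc
Hmga2 site 6, 7mer-m8: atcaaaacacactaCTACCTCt
Hmga2 site 7, 7mer-A1: tcttaagtcccagtaTACCTCA
Igf2bp1 site 1, 8mer: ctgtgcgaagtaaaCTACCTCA
Igf2bp1 site 3, 8mer: agcagtgctattaaCTACCTCA
Igf2bp1 site 4, 8mer: tataaatggatgaaCTACCTCA
Trim71 site 1, 8mer: acattgcctaagtcCTACCTCA
Trim71 site 2, 8mer: gtgataatttctatCTACCTCA
Trim71 site 4, 8mer: ttagtatggattttCTACCTCA
Trim71 site 5, 8mer: tggcaaaaagttgtCTACCTCA
Lin28b site 1, 8mer: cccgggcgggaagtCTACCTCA
Igf2bp2 site 1, 8mer: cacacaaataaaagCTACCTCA
Igf2bp3 site 1, 8mer: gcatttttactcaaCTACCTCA
Arid3b site 1, 7mer-A1: ttgatgcacagaattTACCTCA
Hmga1 site 1, 7mer-m8: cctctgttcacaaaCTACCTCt

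The first Hmga2 site lay at chr10:120364224-120364245 on the minus strand, 58 bases into the 3'UTR. The 8mers of Lin28b and Trim71 nearest to the stop codon were likewise early, at 36 and 166 bases, the former at chr10:45381022-45381043 and the latter at chr9:114512472-114512493, both on the minus strand. The first Igf2bp1 8mer lay 1715 bases into a 3'UTR of 6337 bases, at chr11:95961778-95961799 on the minus strand. The single Igf2bp3 8mer was at chr6:49086787-49086808 on the minus strand and the single Hmga1 match at chr17:27563278-27563299 on the plus strand. The 8mer of Igf2bp2 was at chr16:22059473-22059494 on the minus strand, and the first Arid3b site, 66 bases after the stop codon, at chr9:57792443-57792464 on the same strand.

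**Figure D1:**
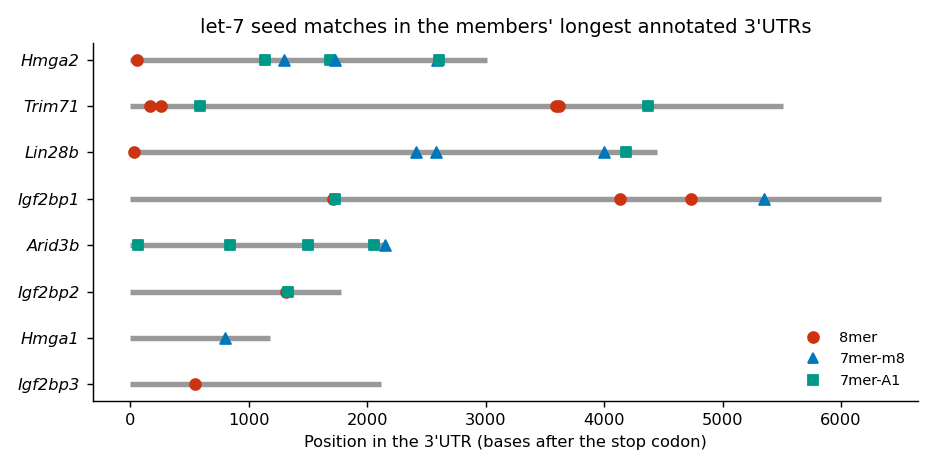
Position of each let-7 seed match (x axis, bases after the stop codon) in the longest annotated 3'UTR of the 8 genes, drawn as a grey bar to scale. Circles are 8mers, triangles 7mer-m8 and squares 7mer-A1 matches. Hmga2 holds 7 matches and Trim71 6, and Hmga1 and Igf2bp3 hold 1 each.

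The libraries held between 7903288 and 268564145 counted reads, the shallowest being wild-type tumor 4 and the deepest ΔAgo2 tumor 4. Of all genes 16061 were tested, and 3.49% of them differed between genotypes at an adjusted p under 0.05 in edgeR's quasi-likelihood test, 1.36% being higher and 2.12% lower in the tumors labelled ΔAgo2. The difference followed base composition: the Spearman correlation between the log2 fold change of a gene and the GC content of its longest transcript was -0.561 across 15906 genes, which are not independent replicates. Values after removal of a GC trend in each library are therefore given beside the others, and by that fit 3.74% of genes were called. Ago2 transcript was not lower in the tumors labelled ΔAgo2. Its level, as CPM (read counts scaled to a common library total), was 129.9, 195, 151.3 and 138.5 in the wild-type and 118.3, 354.7, 215 and 270.1 in the others, a log2 fold change of 0.64 ± 0.305 (SE, adjusted p = 0.205, edgeR). A guide can disrupt a protein and leave its transcript, and the study assayed Ago2 protein in the cells by Western blot, which these libraries do not measure. The genotype of each library rests here on its label, and every direction below is that of the labels.

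Of the 8 genes 7 had enough reads to be tested, and Lin28b was left out by the filter on low counts. The transcripts of Hmga2 and Igf2bp1 rose in the tumors labelled ΔAgo2 and no member was called lower. Of the 7, 6 had a positive and 1 a negative log2 fold change, with a median of 0.69 beside a median of 0.04 over all genes tested. The 2 called genes are 2 of 7 beside the 3.49% of all tested genes, but the genes were chosen as let-7 targets and the members tested are few, so no test was made over them. Without the GC trend the median of the 7 was 0.77.

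Hmga2 (ENSMUSG00000056758.14, chr10:120361275-120476469) showed the largest change of the tested members. In replicate order its CPM was 417.6, 269.6, 498.1 and 239.8 for the wild-type group, against 654.8, 1258, 1148 and 1203 for the ΔAgo2 group. The lowest ΔAgo2 tumor, number 1, lay above the highest wild-type tumor, and the other ΔAgo2 tumors lay close together. The mean rose from 356 ± 122 to 1066 ± 278 CPM (SD, n = 4 in each group), a log2 fold change of 1.58 ± 0.304 (SE, adjusted p = 0.0241, edgeR). With the GC trend removed the log2 fold change was 1.23 ± 0.198 (SE, adjusted p = 0.00762). The call was lost when any of wild-type tumors 2 and 4 or ΔAgo2 tumors 2, 3 and 4 was left out, with adjusted p from 0.0534 to 0.0916 and log2 fold changes from 1.44 to 1.55.

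Igf2bp1 (ENSMUSG00000013415.9, chr11:95957163-96005940), whose protein binds and protects messenger RNAs such as that of Myc, varied little within a genotype, by 0.85 and 1.75 CPM (SD, n = 4) in the 2 groups. Its CPM was 15.07, 14.3, 14.46 and 13.04 in the wild-type tumors and 23.68, 24.07, 27.55 and 24.78 in the ΔAgo2 tumors. The groups were far apart and each was narrow, including in the shallowest library. The log2 fold change was 0.81 ± 0.182 (SE, adjusted p = 0.0396, edgeR), and 0.77 ± 0.139 (SE, adjusted p = 0.0154) without the GC trend. The size hardly moved when 1 library was left out, from 0.77 to 0.85, but the call was kept only without ΔAgo2 tumor 1, and the adjusted p was between 0.0511 and 0.141 without any of the other 7.

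**Figure D2:**
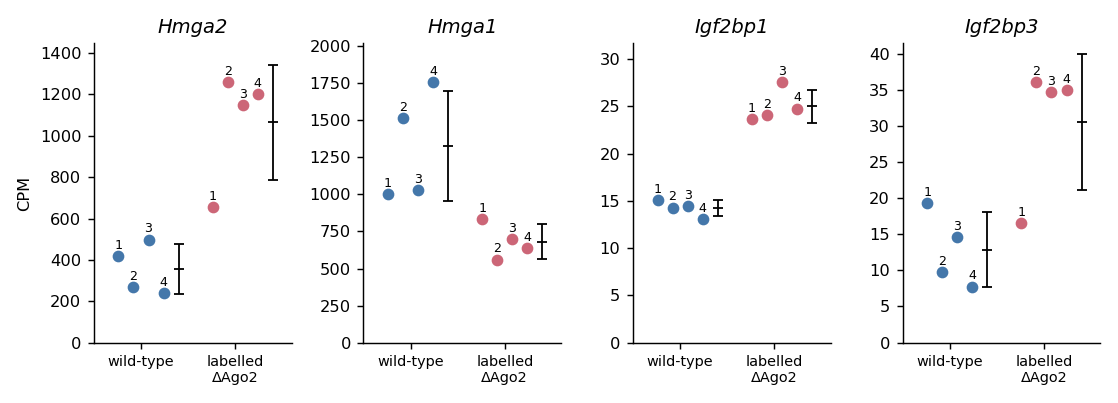
CPM (y axis, from 0) of Hmga2, Hmga1, Igf2bp1 and Igf2bp3 in each tumor. Points are tumors with their replicate number, and the bar to the right of each group is the mean ± SD (n = 4). The groups do not overlap for Hmga2, Hmga1 and Igf2bp1, and for Igf2bp3 ΔAgo2 tumor 1 lies within the wild-type range.

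Igf2bp3 (ENSMUSG00000029814.10, chr6:49085223-49214957), the paralog most often found in carcinomas, did not pass the test. Its CPM was 19.28, 9.77, 14.59 and 7.74 in the wild-type tumors and 16.54, 36.01, 34.66 and 34.95 in the ΔAgo2 tumors. The overlap came from ΔAgo2 tumor 1 alone, which lay below wild-type tumor 1, while the other 3 lay above all wild-type tumors. The log2 fold change was 1.24 ± 0.337 (SE, adjusted p = 0.0675, edgeR), and 0.90 ± 0.238 (SE, adjusted p = 0.0688) without the GC trend. It passed without wild-type tumor 1 (adjusted p = 0.0429) and without ΔAgo2 tumor 1 (adjusted p = 0.0264). Its exons share 1529 bases with Malsu1 on the opposite strand, and whether the counting used strand is not given in the sources used here. Malsu1, a mitochondrial ribosome assembly factor, had a log2 fold change of 0.23 (adjusted p = 0.551, edgeR).

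Igf2bp2 (ENSMUSG00000033581.17, chr16:22059009-22163299), the paralog that adult tissues also express, was the most abundant of the 3. Its CPM was 173.4, 159.3, 178.1 and 123.7 in the wild-type tumors and 120.4, 237, 257.5 and 236.7 in the ΔAgo2 tumors. Again ΔAgo2 tumor 1 stood apart, here below every wild-type tumor, and the other 3 stood above them. The log2 fold change of 0.42 ± 0.254 (SE, adjusted p = 0.299, edgeR) did not pass the test. Per transcript length, in TPM, a unit scaled for gene length, Igf2bp2 made up 85.7 to 88.9% of the summed level of the 3 paralogs in wild-type and 78.4 to 83.1% in ΔAgo2 tumors.

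Hmga1 (ENSMUSG00000046711.16, chr17:27556497-27563674) was the only tested member with a negative log2 fold change. Its CPM was 1001, 1516, 1030 and 1756 in the wild-type tumors and 833.1, 559.7, 698.1 and 637.9 in the ΔAgo2 tumors, so that the groups did not overlap. The log2 fold change was -0.96 ± 0.251 (SE, adjusted p = 0.0625, edgeR) and did not pass the test. Hmga1 had the highest GC content of the members, 61.4% in its longest transcript, above 97.7% of the genes tested. Without the GC trend its log2 fold change was -0.31 ± 0.15 (SE, adjusted p = 0.27), while those of Hmga2 and Igf2bp1 still passed. A near-identical gene, Hmga1b, moved alike, from 5.08 to 2.56 CPM on average (log2 fold change -0.97, adjusted p = 0.11, edgeR), and reads of the 2 could have been shared between them. The call of Hmga1 was gained without wild-type tumor 3 (adjusted p = 0.047) and without ΔAgo2 tumor 1 (adjusted p = 0.0348).

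Trim71 (ENSMUSG00000079259.2, chr9:114507133-114564369), a ubiquitin ligase and RNA-binding protein of early embryos, and first known as a let-7 target in worms, was low. Its CPM was 1.44, 3.19, 2.44 and 1.72 in the wild-type and 2.67, 4.06, 3.73 and 3.83 in the ΔAgo2 tumors. Only ΔAgo2 tumor 1 lay within the wild-type range. The log2 fold change was 0.69 ± 0.336 (SE, adjusted p = 0.211, edgeR), and 0.86 ± 0.317 (SE, adjusted p = 0.159) without the GC trend.

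Arid3b (ENSMUSG00000004661.15, chr9:57790353-57836793), a DNA-binding protein of the ARID family, showed no detectable change. Its CPM was 2.77, 4.77, 2.48 and 2.72 in the wild-type and 2.15, 4.25, 4.09 and 3.34 in the ΔAgo2 tumors, with wild-type tumor 2 the highest of all. The log2 fold change was 0.12 with a 95% interval from -0.63 to 0.87 (adjusted p = 0.845, edgeR), and its sign turned under 3 of 23 alternative settings. Such an interval includes a fall and a rise of moderate size.

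Lin28b (ENSMUSG00000063804.8, chr10:45376620-45486395), the block to let-7 maturation, was near the limit of detection. It had 31, 10, 29 and 0 reads in the wild-type tumors and 5, 10, 5 and 39 in the ΔAgo2 tumors. As CPM these were 0.58, 0.48, 0.61 and 0 against 0.10, 0.09, 0.15 and 0.14. The library without a read was the shallowest, in which 3 reads, the limit that a count of 0 allows, are 0.43 CPM, so that a level above that of the ΔAgo2 tumors is not excluded there. In a fit without a filter on counts its log2 fold change was -1.92 ± 0.64 (SE, adjusted p = 0.103, edgeR). It passed the filter in 5 of the 8 fits that left out 1 library. On leaving out any of the ΔAgo2 tumors its adjusted p was 0.0662 to 0.219. It was under 0.05 only on leaving out wild-type tumor 4, the library with no read, at -2.23 ± 0.401 (SE, adjusted p = 0.0278), a value that rests on the 3 wild-type tumors in which it was detected. Its paralog Lin28a was at or near 0 in every library. These limits cover counting error only.

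Groups that did not overlap were found for 3 of the 7 tested members, of which 2 were higher and 1 was lower in ΔAgo2 tumors. Over all genes tested the shares were 16.4% for either direction and 8.05% for higher.

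**Figure D3:**
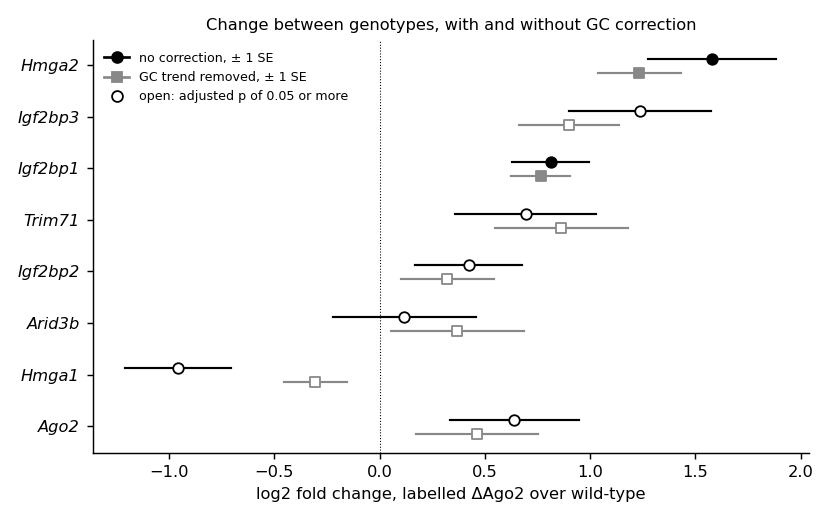
log2 fold change (x axis, tumors labelled ΔAgo2 over wild-type) of the 7 tested members and of Ago2, from edgeR without correction (circles) and with the GC trend of each library removed (squares). Bars are ± 1 SE and filled symbols have an adjusted p under 0.05. Hmga2 and Igf2bp1 are filled in both fits, and Hmga1 moves from -0.96 to -0.31.

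Set against each other per transcript length, the members spanned several orders of magnitude. In wild-type tumors the mean level was 1609 TPM for Hmga1, 143 for Hmga2, 57.8 for Igf2bp2, 4.30 for Igf2bp3, 3.92 for Igf2bp1, 1.07 for Arid3b, 0.63 for Trim71 and 0.13 for Lin28b. In ΔAgo2 tumors the order was the same, at 970 TPM for Hmga1, 508 for Hmga2, 92.8 for Igf2bp2, 12.1 for Igf2bp3, 8.04 for Igf2bp1, 1.40 for Arid3b, 1.22 for Trim71 and 0.04 for Lin28b. In both groups the ranges over tumors overlapped for Igf2bp3 with Igf2bp1 and for Arid3b with Trim71, and no other neighbours in the order overlapped.

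**Figure D4:**
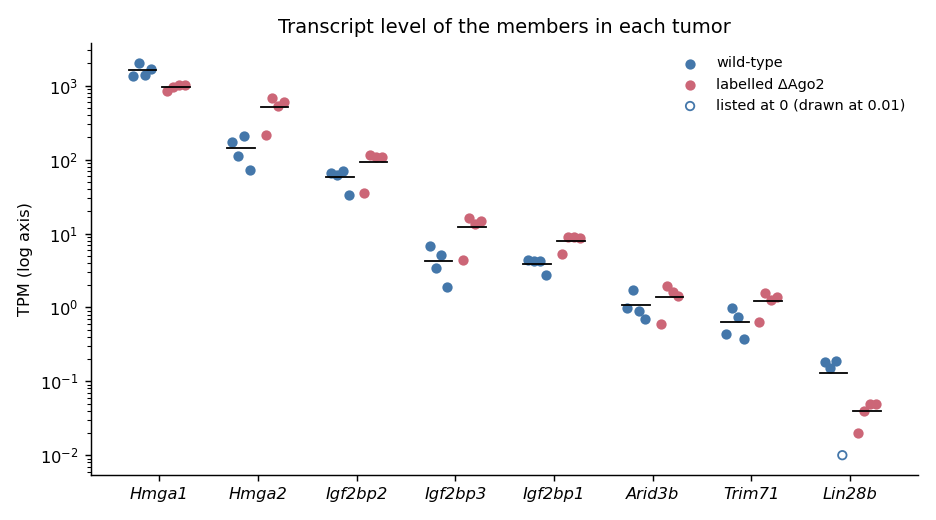
TPM (y axis, log scale) of the 8 genes in each tumor, wild-type in blue and labelled ΔAgo2 in red, with the mean of each group as a line. The open circle is the wild-type tumor in which Lin28b is listed at 0, drawn at 0.01. Hmga1 is the highest gene and Lin28b the lowest in both groups.

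The share of Hmga2 beside Hmga1 was read in each tumor. Hmga2 was 13.1, 5.58, 15.2 and 4.29% of the TPM of Hmga1 across the wild-type group, against 24.7, 70.5, 51.6 and 59.2% across the ΔAgo2 group, in replicate order. The lowest share in a ΔAgo2 tumor was above the highest in a wild-type tumor. On the log2 scale the ratio differed by 2.53 between the groups (two-sided exact permutation test over 70 assignments, p = 0.0286, the smallest it can give), and with adjustment over the 3 ratios of members read, p = 0.0857, it did not pass. These ratios were chosen after the values were seen. The difference between the log2 fold changes of the HMGA genes was 2.54 in edgeR's fit and 1.54 without the GC trend. Their levels also ran against each other within a genotype: after the genotype means were taken out, log2 CPM of Hmga2 and Hmga1 had a Pearson r of -0.927 over the 8 tumors. Hmga2 and Igf2bp3 had r = 0.93, Igf2bp2 and Igf2bp3 r = 0.876, and Hmga2 and Trim71 r = 0.226. These points share library, depth and GC trend, and Hmga1 and Hmga2 stood at 61.4% and 45.7% GC. For Hmga1, the member with the highest level, the genes most alike over the 8 tumors were Castor1 (r = 0.995), an arginine sensor upstream of mTORC1, Flot2 (r = 0.995), a membrane raft protein, and Traf4 (r = 0.995), a signaling adaptor. Of 16060 genes, 390 had an r over 0.95 with it, so that this likeness is not particular.

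Cell markers were read in the same tumors. Of the 5 proliferation markers (Mki67, Top2a, Ccnb1, Cdk1, Birc5) none was called by edgeR and 3 had an unadjusted p under 0.05, and their summed level was 493 to 688 CPM in wild-type and 845 to 1014 CPM in ΔAgo2 tumors. The 6 skeletal muscle markers summed to 197 to 2989 CPM in wild-type and 33.7 to 164 CPM in ΔAgo2 tumors, with none called and 5 at an unadjusted p under 0.05, all lower in ΔAgo2 tumors. The 5 skin keratinocyte markers summed to 8.997 to 536 and 406 to 794 CPM, with 1 called higher, Krt10 (adjusted p = 0.046, edgeR). Trp63, which defines basal keratinocytes, was at 0 in a wild-type library. The 5 fibroblast markers summed to 989 to 2445 and 793 to 990 CPM with none called and 3 at an unadjusted p under 0.05. These 3 did not share a direction, with log2 fold changes of -1.30 for Col1a1, -1.22 for Col1a2 and 0.68 for Pdgfra. The leukocyte, endothelial and simple epithelial sums overlapped between the groups. None of the 4 simple epithelial markers of a carcinoma was called, but all 4 had a positive log2 fold change and 2 an unadjusted p under 0.05. Krt8 and Krt18 made up most of their sum, and the levels of Cdh1, the epithelial cadherin, did not overlap, at a mean of 4.21 CPM in wild-type and 11.2 CPM in ΔAgo2 tumors (log2 fold change 1.38 ± 0.364 SE, adjusted p = 0.0628, edgeR). Epcam was low at a mean of 1.23 CPM in wild-type and 3.04 CPM in ΔAgo2 tumors. None of the 5 leukocyte markers was called, and 3 had a positive and 2 a negative log2 fold change. Only Ptprc, the CD45 gene, had an unadjusted p under 0.05. Its groups did not overlap, at a mean of 23.9 and 52.4 CPM (log2 fold change 1.12 ± 0.325 SE, adjusted p = 0.0785, edgeR). None of the 4 endothelial markers was called or had an unadjusted p under 0.05. Over all genes tested, an unadjusted p under 0.05 was more common than chance alone gives. That of Pdgfra, 0.0379, became 0.165 on adjustment (edgeR). The share of all genes under 0.05 is not given here. The counts of markers at an unadjusted p thus have no background and show no shift by themselves. Cdh1, Ptprc, Col1a1, Col1a2 and Pdgfra were named after their values were seen. The part of these cells in the levels of Hmga2 and the other members was not tested, nor was their part in the genes of the lists below, H19 among them.

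The other let-7 targets were read from a list of 38 genes commonly named as such, of which 35 were tested. Of these 3 rose in the tumors labelled ΔAgo2, among them Nras, a RAS GTPase, and Ccnd1, the cyclin that drives entry into the cell cycle, and none was called lower. Of the 35, 29 had a positive and 6 a negative log2 fold change, beside 52.5% positive over all genes tested. Their median was 0.50, and their median GC content was 47.1% beside 49.8% over all genes tested. In 9 the groups did not overlap, all 9 being higher, beside 8.05% of all genes tested. The 3 called genes are 3 of 35 beside 1.36% of all tested genes called higher.

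Ccnd1 had 429.7, 390.5, 417.2 and 371.1 CPM in wild-type and 684.8, 729.9, 630.8 and 635.9 CPM in ΔAgo2 tumors, narrow and well apart in both groups (log2 fold change 0.74 ± 0.177 SE, adjusted p = 0.0488, edgeR). It kept its call without the GC trend (log2 fold change 0.70, adjusted p = 0.0266). Nras, with 2 matches, had a mean of 89.5 CPM in wild-type and 169 CPM in ΔAgo2 tumors (log2 fold change 0.92 ± 0.217 SE, adjusted p = 0.0473, edgeR) and 0.34 (adjusted p = 0.327) without the GC trend. With the trend removed 24 of the 35 were higher, the median was 0.31, and Ghr, the growth hormone receptor, was called lower (log2 fold change -0.74, adjusted p = 0.0238) beside Ccnd1. On leaving out 1 library, Ccnd1 kept its call in edgeR's test only without ΔAgo2 tumor 1 (adjusted p = 0.0313). Without any other library its adjusted p was 0.0594 to 0.159. Nras kept its call only without wild-type tumor 3 (adjusted p = 0.0378) or ΔAgo2 tumor 1 (adjusted p = 0.0401), and its adjusted p was otherwise 0.0601 to 0.146.

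The next genes of this list by p did not pass. Among them were Fndc3a, a fibronectin domain protein (1.35 on the log2 scale, adjusted p = 0.0641), Map4k3, a kinase upstream of mTORC1 (1.32, adjusted p = 0.0641), and E2f5, a cell cycle transcription factor (1.00, adjusted p = 0.0734), all from edgeR.

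Across the transcriptome the seed match was read without the members. The 490 tested genes with an 8mer had a median log2 fold change of 0.19, 17 (3.47%) being called higher and 12 lower, and the 11367 tested genes with no match had a median of 0.02, with 1.33% called higher. The 2 groups of genes also differed in median 3'UTR length, 2388 against 960 bases, and in median GC content, 48.6% against 50.3%. Without the GC trend the medians were 0.03 and -0.05. In that fit 6 (1.22%) of the genes with an 8mer were called higher and 13 lower, beside 1.48% called higher with no match. The larger share of higher calls was thus no longer seen for 8mers. The share with a positive value was 52.7% with an 8mer and 45.9% with no match. Among the 2278 tested genes with any match, 2.24% were called higher before and 1.67% after removal of the trend, when 52.4% were positive. Among the 10 tested non-members with 5 or more matches, all 10 had a positive log2 fold change, from 0.02 for Hic2 to 1.09 for Nemp1. Only Nemp1, a nuclear envelope protein, was called (adjusted p = 0.0382, edgeR), and without the GC trend it was not (log2 fold change 0.72, adjusted p = 0.0698), when Nr6a1, Trim6 and others of the 10 had a negative value. Nemp1 and Hic2 were named after their values were seen.

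The machinery that makes, guides and destroys let-7 was read from 20 genes, of which 17 were tested. Tnrc6a, a GW182 protein that links Argonautes to deadenylation, rose, from 51.16, 61.69, 51.9 and 41.14 CPM in wild-type to 60.01, 161.1, 118.4 and 134.1 CPM in ΔAgo2 tumors (log2 fold change 1.2 ± 0.285 SE, adjusted p = 0.0475, edgeR). ΔAgo2 tumor 1 again lay with the wild-type tumors. Without the GC trend its log2 fold change was 0.92 (adjusted p = 0.0744), and the call was kept on leaving out ΔAgo2 tumor 1 alone. Tnrc6a was the only 1 of the 17 called, beside 1.36% of all tested genes called higher. Of the 17, 11 were positive and 6 negative, with a median of 0.33, beside 52.5% positive over all genes tested. Without the GC trend 9 were positive and 8 negative. Tut4, which adds uridines to precursor let-7 held by LIN28A (1.06 on the log2 scale, adjusted p = 0.0625), Tnrc6b (1.12, adjusted p = 0.124), Trim25, a cofactor of that step (0.54, adjusted p = 0.124), and Ago4 (0.87, adjusted p = 0.153) did not pass in edgeR's test.

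Of 16 oncofetal genes outside the let-7 list, 13 were tested, and 3 were called, all 3 lower, beside 2.12% of all genes: H19, Sox11 and Peg10. Of the 13, 5 had a positive and 8 a negative log2 fold change. H19, an imprinted fetal RNA, stood at 105.4, 289.6, 213.7 and 525.6 CPM in wild-type and 20.68, 13.66, 20.27 and 22.5 CPM in ΔAgo2 tumors. It fell by 3.88 ± 0.448 on the log2 scale (SE, adjusted p = 0.00215, edgeR), and it was called lower whichever 1 of the 8 libraries was left out. Its wild-type values spread widely and its ΔAgo2 values hardly at all.

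Sox11, a transcription factor of the embryonic nervous system, was low throughout, at 1.74, 1.53, 2.19 and 2.72 CPM in wild-type and 0.41, 0.15, 0.24 and 0.23 CPM in ΔAgo2 tumors (log2 fold change -2.99 ± 0.427 SE, adjusted p = 0.00624, edgeR). Peg10, an imprinted gene derived from a retrotransposon, stood at 41.75, 55.11, 57.81 and 39.13 CPM in wild-type and 10.07, 21.91, 13.97 and 23.09 CPM in ΔAgo2 tumors (log2 fold change -1.49 ± 0.288 SE, adjusted p = 0.0244, edgeR). The call of Peg10 was lost without wild-type tumor 2 (adjusted p = 0.0877), ΔAgo2 tumor 3 (adjusted p = 0.0788) or ΔAgo2 tumor 4 (adjusted p = 0.0533). The groups did not overlap for any of the 3, and all 3 passed without the GC trend.

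The other 10 tested oncofetal genes did not pass. Crabp2, a retinoic acid carrier (1.32 on the log2 scale, adjusted p = 0.129), and Plag1, an activator of fetal growth genes (1.58, adjusted p = 0.148), had positive values, as had Ptn, a growth factor (0.38, adjusted p = 0.419), and Peg3, an imprinted zinc finger gene, was at -0.48 (adjusted p = 0.397), all from edgeR. The median of the 13 was -0.22. The fetal genes that were called held no let-7 8mer where a 3'UTR was annotated, and Peg10 held 2 shorter matches.

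**Figure D5:**
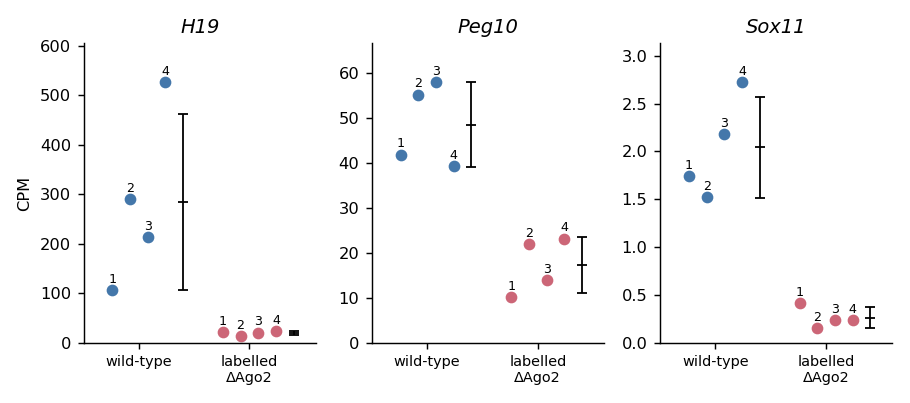
CPM (y axis, from 0) of the 3 called oncofetal genes H19, Peg10 and Sox11 in each tumor. Points are tumors with their replicate number, and the bar to the right of each group is the mean ± SD (n = 4). Every ΔAgo2 tumor lies below every wild-type tumor for all 3 genes.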

How the data were processed

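RNA from 4 wild-type and 4 ΔAgo2 tumors was sequenced by the authors with a stranded poly(A) kit in paired-end mode. The deposited table holds raw read counts per gene, and the submitters' processing notes name STAR and mm10 without their role. The study's methods, written for cultured cells, name featureCounts. Which annotation release was counted, whether strand was used and how reads with several matches were handled are not given in the sources used here. The authors also deposited TPM, normalised for gene length and for library total, with the same genes. Of the gene identifiers 99.29% matched GENCODE M21 (GRCm38), which gave symbols, GC content, lengths and 3'UTRs.

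Genes were filtered with filterByExpr, scaled by TMM and tested between the groups with edgeR 4.0.16 (quasi-likelihood test, R 4.3.3), and p-values were adjusted by Benjamini-Hochberg over the 16061 genes tested, with a threshold of 0.05. CPM are TMM-scaled. The GC-corrected fit used a spline of 5 degrees of freedom in each library as an offset. The deviation of log2 CPM from the mean of each gene was fitted on the GC content of its longest transcript. Genes with a mean of at least 50 reads were used for the spline. Alternatives used DESeq2 1.42.0, limma 3.58.1 and the settings named at the end. The fits were checked on simulated counts with known changes. These were drawn with the same dispersion for every gene and no outlying tumor, so the check does not show how the test behaves on these libraries.

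The replicates carry separate numbers and the methods do not tie each to a mouse, so p-values measure the spread between these samples. Same-numbered tumors did not deviate together, with r from -0.29 to 0.103. The members and gene lists were chosen with earlier results of these data known. Genes named were the members, Ago2, genes of the lists that passed the test with the next 4 by p, and the 3 genes most like the member with the highest mean TPM. The muscle, keratinocyte and other marker lists were set by cell type. Some genes that the rule selects are not reported here.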

Additional observations from a re-analysis of the deposited data

Results flagged for a closer look

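For each of the 8 members and 8 other named genes the 4 tumors of a genotype were checked for a tumor far from the others of its group (Dixon's gap test at 95%). Of 32 such groups 3 were marked, where chance alone marks about 1.6.

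Arid3b stood at 4.77 CPM in wild-type tumor 2 and at 2.48 to 2.77 CPM in the other wild-type tumors. Igf2bp2 stood at 120 CPM in ΔAgo2 tumor 1 and at 237 to 257.5 CPM in the other ΔAgo2 tumors. Igf2bp3 stood at 16.5 CPM in ΔAgo2 tumor 1 and at 34.7 to 36.01 CPM in the others. The same tumor had the lowest Hmga2 of its group, and without it 1793 genes in all and 4 members, Hmga2, Hmga1, Igf2bp1 and Igf2bp3, were called, beside 560 genes and 2 members with it.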

How the results depend on the processing

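The direction of Hmga2, Hmga1, Igf2bp1, Igf2bp2, Igf2bp3 and Trim71 was kept under all 23 alternatives run; Arid3b turned to -0.14 at equal depth, -0.16 with a length correction and, with each library left out in turn, ranged from -0.011 (ΔAgo2 tumor 2 left out) to 0.384 (wild-type tumor 2 left out). Which members were called depended on the settings: Hmga2 was called under 13 of the 23 and Igf2bp1 under 7. Counts of calls are read against the share of all genes called, which was 14.2% with DESeq2 and 27.9% with voom. It was 2.6% with total counts, 3.71% with upper quartile scaling and 7.45% with the length correction. At equal depth it was 0.285%, and in the 3 limma fits on TPM 0.256 to 0.993%.

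Members called were 2 as reported, 4 with DESeq2's Wald test, 6 with limma voom, 1 with total counts, 1 with upper quartile scaling, and 0 at equal depth (counts thinned to the shallowest library) and in the 3 limma fits on log2(TPM + 1), log2(TPM + 0.1) and log2(TPM + 1) with no filter. Their median log2 fold change of 0.69 was 1.04 at equal depth and 0.41 with the length correction. Of the wider let-7 targets, 3 as reported, 9 were called with DESeq2, 19 with voom, 5 with the length correction, 1 with total counts, 1 with upper quartile scaling, and 0 at equal depth and in the 3 TPM fits. Of the let-7 pathway, 1 as reported, 2 were called with DESeq2, 7 with voom, 2 with the length correction, 2 with no count filter, and 0 with the GC correction, total counts, equal depth and the 3 TPM fits. Of the oncofetal genes, 3 as reported, 5 were called with voom and 1 at equal depth, with log2(TPM + 1) and with log2(TPM + 0.1). The median of all genes with an 8mer, members included, was 0.21 in the main fit and 0.04 with the GC correction. This median was added to the comparison of settings after the data were seen.

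With each library left out in turn, 0 to 4 members, 0 to 11 wider targets and 0 to 3 pathway genes were called. No member was called without wild-type tumor 2 or ΔAgo2 tumors 2, 3 or 4, where 0.87, 1.02, 0.902 and 0.541% of all genes were called, in that order. Without wild-type tumor 4, 1 member (Lin28b) was called beside 1.61% of all genes, and without ΔAgo2 tumor 1, 4 members beside 11%.

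Replicate numbers did not pair the tumors: none of the 8 correlated best with its own number. With the replicate block 0 members, 0 wider targets and 0 pathway genes were called, of 70 genes in all, and with the block and the GC correction 1 member, 0 wider targets and 0 pathway genes. Depth, which differed widely, limits Lin28b, Trim71 and Arid3b most. The cause of these differences was not tested.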
